A study of Mus musculus with 12 samples.

Results

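Of the 24046 windows of 100 kb that tile mouse chromosomes 1 to 19, 3373 held no ATAC-seq peak summit in any of 12 libraries of mouse embryonic stem cells. These windows are 14.0% of the windows and cover 337.3 Mb of 2404.6 Mb. Windows were cut from the chromosome start, the first 3 Mb was left out, and each chromosome ended at its last listed peak. A summit is the position of highest signal in a peak, and the windows were chosen by the summit positions of the 12 peak lists themselves. The absence of peaks in them is therefore a description and is not tested.

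The cells came from a BL6xCAST embryonic stem cell line with a synthetic sequence integrated on chromosome X, either synHPRT1 or synHPRT1R, and the series concerns a reversed synthetic sequence. Each genotype had 2 clones with 3 replicates per clone, 6 libraries in all, and every group carried an integrated sequence, so no library used here comes from cells without one. Cells were grown on gelatin in medium that was mostly 2i with LIF, which keeps the cells in a naive state. ATAC-seq maps accessible DNA by the insertion of adapters by Tn5 transposase. Separate cultures are not stated for the replicates of a clone, so p-values measure the spread between libraries, which may be technical.

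The libraries listed 38403 to 63704 peaks each. Of 8 stem cell markers, 7 had a peak within 2 kb of an annotated gene end in all 12 libraries, among them Nanog, Sox2 and Pou5f1, and Esrrb had one in 1 library. Of 5 fibroblast genes, which would mark feeder cells, Twist1 had one in 12 libraries, Col1a1 in 11, Col1a2 in 8, Thy1 in 1 and Col3a1 in 0. The part of other cells in the results was not tested.

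Stretches without accessible sites are of several kinds in a mammalian genome. Gene deserts hold few or no genes, and arrays of duplicated genes, such as those of odorant and pheromone receptors, are packed with genes that are used in 1 specialised tissue and are kept in compact chromatin elsewhere. Promoters of broadly used genes are usually rich in CpG dinucleotides and stay accessible in most cells, whereas promoters of tissue-restricted genes are more often poor in CpG.

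That contrast is visible in the sequences just before the start of genes in these windows. The first 3 sequences are the 250 bases upstream of the first gene, with an entry in the table, of the run holding most members of each of the 3 families with most genes in the windows. They end just before the annotated gene start, and whether transcription begins there was not tested. Olfr1463 and Vmn1r130 have short annotated spans, chr19:13234252-13235184 and chr7:21511780-21512703. Rplp0, a gene of the large ribosomal subunit, is shown for comparison. All are RefSeq sequences of GRCm38.p6, written 5′ to 3′ on the strand of the gene, and capitals mark CpG dinucleotides.
Olfr1463, an olfactory receptor gene, chr19:13234002-13234251, plus strand: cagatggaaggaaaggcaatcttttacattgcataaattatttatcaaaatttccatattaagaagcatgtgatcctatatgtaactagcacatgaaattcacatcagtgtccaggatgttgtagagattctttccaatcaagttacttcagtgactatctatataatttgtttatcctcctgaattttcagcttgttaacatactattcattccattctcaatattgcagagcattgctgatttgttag
Vmn1r130, a vomeronasal receptor 1 gene, chr7:21511530-21511779, plus strand: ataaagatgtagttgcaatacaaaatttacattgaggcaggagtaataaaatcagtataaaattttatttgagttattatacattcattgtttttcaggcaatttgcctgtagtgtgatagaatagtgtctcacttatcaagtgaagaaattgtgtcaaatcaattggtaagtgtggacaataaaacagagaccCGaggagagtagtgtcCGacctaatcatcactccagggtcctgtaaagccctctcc
Vmn2r40, a vomeronasal receptor 2 gene, chr7:8931403-8931652, minus strand: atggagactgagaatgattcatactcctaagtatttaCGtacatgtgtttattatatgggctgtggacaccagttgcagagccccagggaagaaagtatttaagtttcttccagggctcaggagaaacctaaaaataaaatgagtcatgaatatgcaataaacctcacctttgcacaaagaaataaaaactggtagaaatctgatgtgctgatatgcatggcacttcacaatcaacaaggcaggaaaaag
Rplp0, chr5:115559217-115559466, plus strand: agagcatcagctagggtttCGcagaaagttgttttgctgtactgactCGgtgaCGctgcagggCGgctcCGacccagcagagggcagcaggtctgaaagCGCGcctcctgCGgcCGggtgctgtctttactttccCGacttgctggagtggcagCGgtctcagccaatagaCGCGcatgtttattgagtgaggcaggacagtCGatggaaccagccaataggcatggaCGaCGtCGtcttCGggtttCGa
The Olfr1463 sequence holds 0 CpG dinucleotides and 32% G and C bases. Vmn1r130 holds 2 CpG with 35.6% G and C, and Vmn2r40 holds 1 CpG with 38.4%. Rplp0 holds 19 CpG with 58% G and C. Of the 12 libraries, 12 listed a summit within 1 kb of the Rplp0 promoter and 0 within 1 kb of the other three, as the choice of windows requires.

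The windows without a summit formed 2434 runs of adjacent windows. Most were short: 1790 runs were a single window, 442 had 2 windows, 139 had 3 and 47 had 4. The 202 runs of at least 3 windows held 699 windows, 20.7% of all windows without a summit. A window that followed one without a summit was itself without one in 27.8% of cases, against 11.8% of cases after a window with a summit. The windows that flank the runs had a summit in a median of 11 libraries, and all windows with a summit in a median of 12, so the runs mostly bordered windows with a summit in most libraries.

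**Figure D1:**
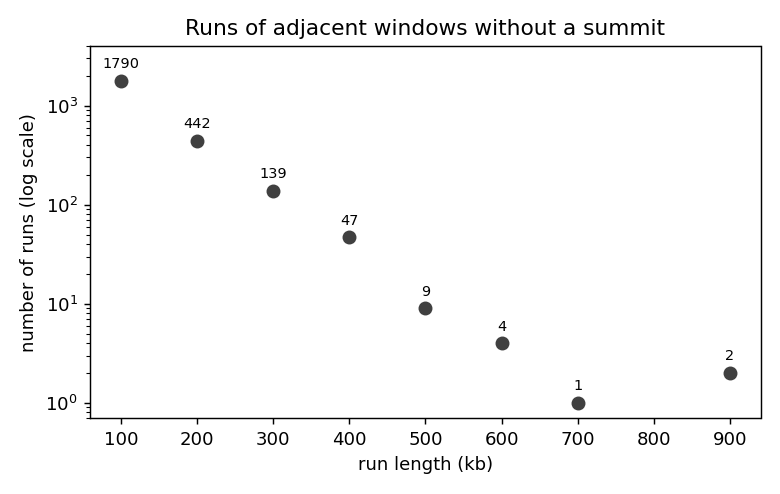
Number of runs of adjacent 100 kb windows without a summit in any library (vertical axis, log scale) by run length in kb (horizontal axis), each point labelled with its count. Counts fall from 1790 single windows to 2 runs of 900 kb.

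The longest runs were of both kinds, receptor arrays and gene deserts. A run of 900 kb lay at chr7:8900001-9800000 in an array of pheromone receptor genes. It held 6 protein-coding genes, Vmn2r40, Vmn2r39, Vmn2r38, Vmn2r37, Gm10302 and Vmn2r46, with 16 pseudogenes and 3 long noncoding RNA genes, and the next genes on either side, Vmn2r45 and Vmn2r47, are of the same family. Measured from peak to peak, 1013.39 kb there were free of any peak, and the peaks at both edges were each listed in 10 libraries. The other run of 900 kb, at chr12:6600001-7500000, held 0 protein-coding genes, 2 pseudogenes and 2 long noncoding RNA genes. Its nearest protein-coding genes were Klhl29, 1224.32 kb away, and Apob, the apolipoprotein of low-density lipoprotein, 477.629 kb away.

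The third run, 700 kb at chr4:60700001-61400000, lay in the major urinary protein array. Its 4 protein-coding genes were Mup12, Mup22, Mup13 and Mup14, which encode liver-made carriers of urinary pheromones, and its edges lay 37.569 kb from Mup11 and 35.787 kb from Mup15. The peak before it was listed in 12 libraries and the peak after it in 11.

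Of the 4 runs of 600 kb, 1 held a protein-coding gene. The run at chr4:50900001-51500000 held Cylc2, which encodes a sperm head protein, with 1053.98 kb to Grin3a and 939.221 kb to Smc2. Both of its edge peaks were listed in 1 library only, so the other libraries had a longer stretch without a peak there. The run at chr12:9700001-10300000 lay 118.501 kb from Osr1, a transcription factor gene of kidney and limb development, and 69.971 kb from Nt5c1b. The run at chr15:23500001-24100000 began 22.51 kb past the neuronal cadherin gene Cdh18 and ended 1263.28 kb before Basp1. The run at chr15:28700001-29300000 lay between Dnah5, which encodes an axonemal dynein, and Ctnnd2, which encodes a catenin of neurons, at 227.956 kb and 872.534 kb.

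Of the 9 runs of 500 kb, the 5 first by chromosome name held 0 whole protein-coding genes. They lay at chr2:138700001-139200000 between Btbd3 and Sptlc3, at chr3:71600001-72100000 between Otol1 and Sis, and at chr3:76200001-76700000 inside the neuronal gene Fstl5. The other two lay at chr5:47300001-47800000, 181.291 kb before the axon guidance gene Slit2, and at chr6:73800001-74300000, 2581.64 kb before the catenin gene Ctnna2. The run inside Fstl5 and the last one held 0 whole annotated genes of any kind. The share of unassembled bases and of repeats in these runs was not analysed here, since it needs the genome sequence.

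Windows without a summit were poor in genes. By gene midpoint they held 996 protein-coding genes, 2.95 per Mb, against 9.46 per Mb in windows with a summit. No protein-coding gene overlapped 2091 of them (62.0%), against 30.6% of the windows with a summit, and no annotated gene of any kind overlapped 1060 (31.4%), against 12.4%. A further 697 (20.7%) lay entirely within the span of a single protein-coding gene, against 13.9% of the windows with a summit.

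Of the 20560 protein-coding genes on these chromosome stretches, 632 (3.07%) had their whole annotated span inside a run. They sat in 252 of the 2434 runs (10.4%). They were short, with a median span of 3.24 kb against 17.6 kb over all protein-coding genes, and since a single window is 100 kb long this placement selects short genes. Among genes of up to 100 kb the share was 628 of 18248 (3.44%). Pseudogenes were the most numerous genes inside the runs, 1021 of 8798 (11.6%), and small nucleolar RNA genes had 196 of 1276 (15.4%). The first share lies below, and the second near, the 14.0% of all windows that had no summit.

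Receptor genes of the nose made up much of the protein-coding content. Of the 632 genes inside, 263 were olfactory or vomeronasal receptor genes. Of 1099 olfactory receptor genes, which encode the odorant receptors of olfactory neurons, 174 (15.8%) were inside, in 40 runs on 13 chromosomes. The run with most of them, chr19:13200001-13700000, held 15, from Olfr1463 to Olfr1490. Chromosome 2 had 59 of its 286 olfactory receptor genes inside, chromosome 7 had 28 of 237, chromosome 9 had 25 of 129 and chromosome 19 had 25 of 63. Chromosome 11 had 4 of 83 and chromosome 10 had 1 of 68. The family's count inside depended on the window size, with 453 genes in 50 kb and 16 in 200 kb windows.

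Of 228 vomeronasal receptor 1 genes, 57 (25%) were inside, and 47 of these were on chromosome 7. A run at chr7:21500001-21900000 held 7, from Vmn1r130 to Vmn1r249. Of 121 vomeronasal receptor 2 genes 32 (26.4%) were inside, in 19 runs, with 21 on chromosome 7, 9 on chromosome 17 and 2 on chromosome 5. These receptors serve pheromone sensing in the vomeronasal organ. All 3 shares stand above the 3.07% of all protein-coding genes. That share is low partly because long genes seldom fit inside a run, whereas 14.0% of all windows had no summit. The olfactory receptor share of 15.8% is near that 14.0%, and both vomeronasal shares are above it.

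**Figure D2:**
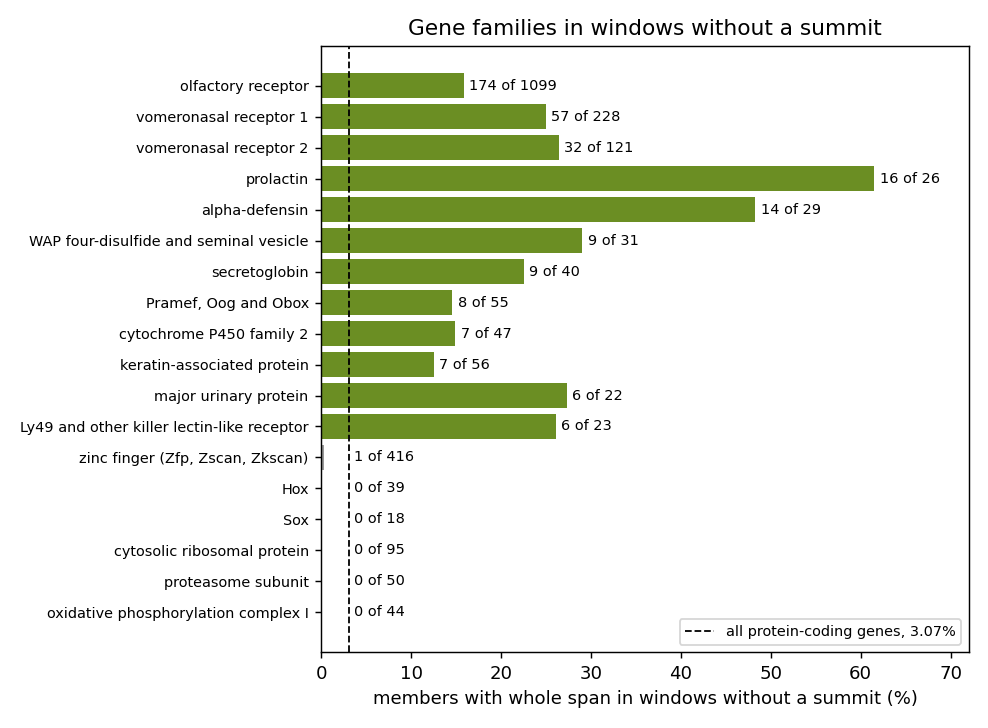
Percent of the members of each family (horizontal axis) whose whole span lay in windows without a summit, for the 12 families with most genes inside (green) and 6 others (grey), with counts beside the bars and the share of all protein-coding genes as a dashed line. Prolactin genes reach 16 of 26, and the ribosomal, proteasome, complex I, Hox and Sox lists are at 0.

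The prolactin family, hormones of the pituitary and placenta, had the highest share of the 53 families searched. Of its 26 genes 16 (61.5%) were inside, all on chromosome 13 in 3 neighbouring runs. The run at chr13:27400001-27800000 held 9, from Prl8a6 to Prl7c1. A run at chr13:27100001-27300000 held Prl3d2, Prl3d3, Prl3c1, Prl3b1 and Prl3a1, and a run at chr13:28000001-28300000 held Prl4a1 and Prl5a1. Prl3d and Prl3b genes encode placental lactogens. Over the gene with 1 kb on either side, a measure added after the data were seen, 26 of the 26 prolactin genes had no summit in any library, against 4275 of all 20560 protein-coding genes (20.8%). For the 16 inside this largely follows from the choice of windows, so only the other 10 add to it. The measure also depends on gene length, which was not matched.

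Alpha-defensins, antimicrobial peptides of the small intestine, had 14 of 29 genes (48.3%) inside, in 2 runs on chromosome 8. A run at chr8:21300001-21600000 held 11 of them, from Defa27 to Defa43, and the run at chr8:21100001-21200000 held Defa30, Defa22 and Defa31. Of the beta-defensin genes 4 of 42 were inside, all in 1 run.

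Families of the male tract and of skin, liver and immune cells followed. The list of WAP four-disulfide and seminal vesicle proteins had 9 of 31 inside, among them Svs2, Svs3b, Svs4 and Svs3a, which encode seminal fluid proteins, in the single window chr2:164200001-164300000. Secretoglobins had 9 of 40, of which Scgb2b19, Scgb1b19, Scgb2b20 and Scgb1b20 shared a run at chr7:33200001-33500000, and major urinary proteins had 6 of 22. The oocyte and early embryo list of Pramef, Oog and Obox genes had 8 of 55, cytochrome P450 family 2 had 7 of 47 and keratin-associated proteins of hair had 7 of 56. Those shares, 14.5%, 14.9% and 12.5%, lay near the 14.0% of all windows that had no summit. Killer lectin-like receptors of natural killer cells had 6 of 23, with Klra7, Klra10, Klra3 and Klra1 in a run at chr6:130200001-130600000.

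Other families, picked out after their counts were seen, had no gene inside. Type I interferon genes had 0 of 20, trace amine receptors 0 of 15, ribonuclease A genes 0 of 20 and carboxylesterases 0 of 19. A gene could be inside only where at least 100 kb around it was free of summits. Of these families, 17 of the 20 interferon genes and 14 of the 15 trace amine receptor genes had no summit in their span with 1 kb added at both ends. The same held for 15 of the 20 ribonuclease A genes and 14 of the 19 carboxylesterases. Over all protein-coding genes it held for 4275 of 20560 (20.8%), and gene length was not matched. By that measure, olfactory receptors had none in 1041 of 1099 (94.7%), vomeronasal receptor 1 genes in 225 of 228 (98.7%) and vomeronasal receptor 2 genes in 95 of 121 (78.5%). These receptor counts include the genes inside, where the lack of a summit largely follows from the choice of windows.

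The comparison lists of widely used and developmental genes had nearly no whole gene inside. Of 95 cytosolic ribosomal protein genes, 50 proteasome subunit genes, 44 complex I genes, 39 Hox genes and 18 Sox genes, 0 had their whole span inside a run. Of 416 zinc finger genes 1 did, Zscan4c, a gene of the 2-cell-like state of stem cells. The share of all protein-coding genes inside was 3.07%. At that share the shorter lists would hold few genes, so their counts of 0 are near it. Gene length was not matched.

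Among the 241 genes inside that belong to none of the families, 95 carry a Gm symbol, and several named groups were picked out after their positions were seen. The mast cell protease genes Mcpt1, Mcpt2, Mcpt9, Mcpt4 and Mcpt8 shared 1 run on chromosome 14, and the trypsin genes Try4, Try5, Try10, Prss3 and Prss1 shared 1 on chromosome 6. The coagulation genes F7, F10 and Proz shared 1 on chromosome 8. Chemokine genes had 5 of 19 inside (Ccl2, Ccl7, Ccl11, Ccl3 and Ccl4), and interleukins and their receptors 7 of 78, among them Il1b and Il2. Single genes of this kind included the insulin gene Ins1, the arginase gene Arg1, the lipopolysaccharide receptor gene Tlr4 and Tnp1, which encodes a transition protein of sperm chromatin. For comparison, 3.07% of all protein-coding genes were inside, and 14.0% of all windows had no summit. The share of interleukins and their receptors lay between those values.

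The longest genes wholly inside were mostly of other kinds, and only Vmn2r60 and Sult2a4 among them belong to the families searched. Cmah, which encodes the hydroxylase of sialic acid, spanned 149.886 kb at chr13:24327404-24477289. Fam160a1 spanned 125.24 kb, the organic anion transporter gene Slc22a27 102.13 kb, its neighbour in the family Slc22a28 70.025 kb, the sulfotransferase gene Sult2a4 79.915 kb, Vmn2r60 79.306 kb and the collagen gene Col6a3 77.142 kb. The predicted genes Gm7133, Gm6098 and Gm7361 spanned 147.856, 89.65 and 86.1 kb.

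The protein-coding genes with most windows without a summit in their span were large and only in part free of summits. They were picked by that number, and 14.0% of all windows had no summit. Cntnap2, a neurexin-related adhesion gene of 2241.33 kb on chromosome 6, had most such windows, 10 of 24. Csmd1 had 9 of 18 and Nrg3, which encodes a neuregulin, 8 of 12. Pard3b had 6 of 11, Lingo2 6 of 14, the potassium channel gene Kcnma1 6 of 9, the calcium channel subunit gene Cacna2d3 6 of 9, Dpp10 5 of 16 and Fstl5 5 of 8. Of 23 cadherin genes 0 were wholly inside and 8 overlapped a window without a summit, and of 26 glutamate receptor genes 0 and 12. Of all 20560 protein-coding genes 1362 overlapped one. Long genes overlap such windows more easily and fit inside a run less easily, and length was not matched.

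Promoter sequence, which the choice of windows did not use, differed between these genes and the rest. RefSeq promoters of 300 bases (250 before and 50 after the start, the first listed per gene) matched 521 of the 632 genes inside (82.4%) and 16457 of all 20560 (80.0%). Their place follows the annotated start, and whether transcription begins there was not tested. Genes inside had a median of 1 CpG dinucleotide (quartiles 1 and 3) and 40% G and C, and all genes had a median of 14 CpG (quartiles 4 and 25) and 56.7% G and C. At most 3 CpG were found in 444 of the promoters inside (85.2%) and in 22.0% of the others, and no promoter inside had more than 12. A ratio of observed to expected CpG of at least 0.6 was reached by 2 of the 521 (0.384%), against 49.7% of all promoters. These were Slfn4, with 7 CpG and 33.7% G and C, and Nat8f3, with 11 CpG and 47.3%, so both had fewer CpG than the median of all promoters. Without the receptor families the median inside was 2 CpG and the share at this ratio 0.673%. Within families, medians were compared where at least 80% of the genes inside and of those outside had a promoter entry. Vomeronasal receptor 1 genes had a median of 2 CpG inside and 1 outside, and vomeronasal receptor 2 genes 1 and 1. Keratin-associated protein genes had 1 and 2, and killer lectin-like receptors 2 and 2. These families were thus poor in CpG outside the windows too.

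The letters TATAAA, searched on both strands, were found in 215 of the promoters inside (41.3%) and in 13.5% of all promoters. The promoters inside had fewer G and C bases, and a match is not a binding site. Within families this was not uniform, and no test was made: vomeronasal receptor 2 promoters held these letters in 2 of 31 inside and 25 of 84 outside, vomeronasal receptor 1 promoters in 25 of 56 and 62 of 149, and keratin-associated protein promoters in 6 of 6 and 36 of 45.

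**Figure D3:**
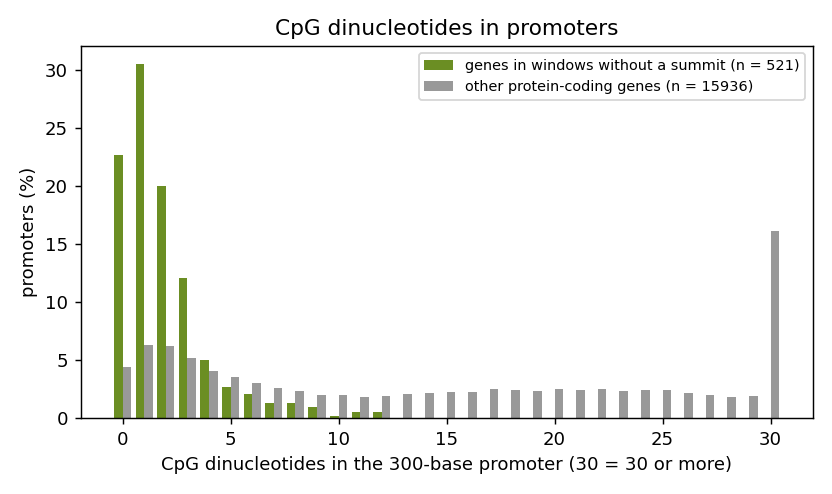
Percent of promoters (vertical axis) by number of CpG dinucleotides in the 300-base promoter (horizontal axis, 30 standing for 30 or more), for the 521 genes in windows without a summit (green) and the 15936 other protein-coding genes (grey). Promoters inside are at most at 12 and mostly at 0 to 3.

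Duplicated promoters were also more frequent inside. A stretch of 50 bases that also occurs in the promoter of another gene was present in 212 of the 521 promoters (40.7%), against 14.6% of all promoters. Such sharing covered at least 50% of the stretches in 36 of the 56 vomeronasal receptor 1 promoters inside (64.3%), against 23.5% of those of the family outside. For vomeronasal receptor 2 genes it did so in 38.7% inside and 14.3% outside. The promoter of Vmn1r130 printed above shared 100% of its stretches with other genes and that of Vmn2r40 89.6%, whereas Olfr1463 and Rplp0 shared 0%. Prolactin genes inside were less alike: 2 of 15 promoters shared at least 50%, and the nearest other member was 75.3% identical in the median, against 99.8% for vomeronasal receptor 1 genes. Fewer than 80% of the olfactory receptor, alpha-defensin, secretoglobin, major urinary protein, cytochrome P450 family 2 and Pramef, Oog and Obox genes inside had a promoter entry, so no comparison within those families is made. Reads from near-identical copies can be hard to place, and the sources used here do not say how such reads were treated. The part of shared sequence in the absence of summits was not tested.

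The share of windows without a summit varied between chromosomes. Chromosome 15 had the highest share, 190 of 1009 windows (18.8%), followed by chromosome 14 with 208 of 1219 (17.1%) and chromosome 8 with 212 of 1263 (16.8%). The lowest were chromosome 2 with 171 of 1791 (9.55%), chromosome 17 with 88 of 919 (9.58%) and chromosome 11 with 122 of 1190 (10.3%). The remaining 13 chromosomes lay between 11.7% on chromosome 13 and 16.1% on chromosome 3. Across the 19 chromosomes the share and the number of protein-coding genes per Mb had a Pearson's r of -0.45 and a Spearman's rho of -0.52. This is a description over chromosomes that share the same libraries.

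Chromosomes 7 and 19 were gene-rich without a low share. They had 14.2 and 12.1 protein-coding genes per Mb, close to the 13.5 of chromosome 11, but 14.3% and 15.1% of windows without a summit. Chromosome 7 held 142 of the 632 genes inside, chromosome 2 held 68, chromosome 13 held 45 and chromosome 19 held 40. Chromosome 15, with the highest share of windows, held 20 genes inside. Of the genes inside on chromosome 7, 28 were olfactory receptor, 47 vomeronasal receptor 1 and 21 vomeronasal receptor 2 genes.

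**Figure D4:**
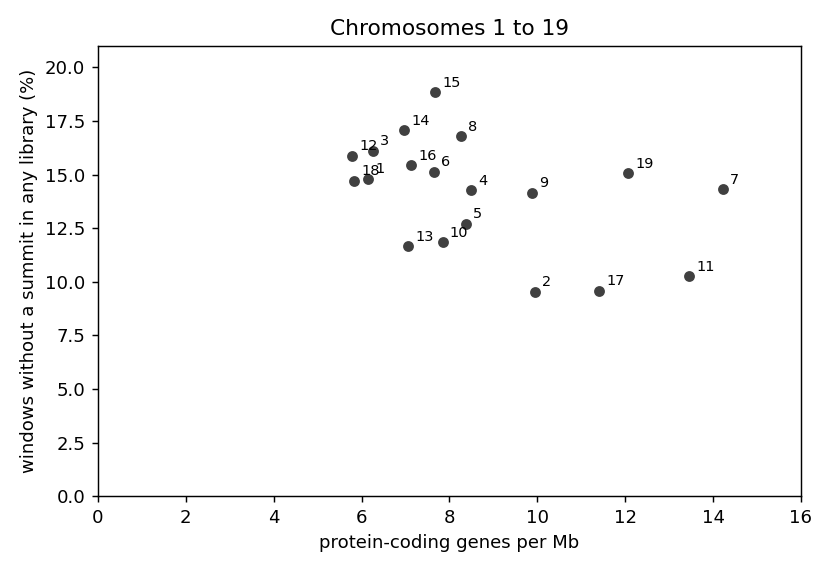
Percent of 100 kb windows without a summit in any library (vertical axis) against protein-coding genes per Mb (horizontal axis), 1 labelled point per chromosome. Chromosome 15 is highest at 18.8% and chromosomes 2, 17 and 11 lowest, while 7 and 19 are gene-rich with 14.3% and 15.1%.

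A single library had far more windows without a summit than the 12 together. In synHPRT1 the share of windows without one ran from 23.0% over a median of 30.0% to 36.4%, and in synHPRT1R from 25.1% over 31.5% to 33.4%. The ranges overlapped. The highest share was that of the library with the shortest list, 38403 peaks, and the lowest that of a library with 63563, the second longest. The means were 29.0 ± 5.14% and 30.3 ± 3.04% (SD, n = 6 each), a difference of -1.29 percentage points. It was below the SD of either genotype (exact permutation test, two-sided, p = 0.584, where the smallest possible is 0.00216). In synHPRT1 the clones averaged 28.1% and 29.9%, and in synHPRT1R they averaged 29.0% and 31.6%. With clones as the units, 2 in each genotype, an exact permutation p could not be smaller than 0.333.

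The direction of this comparison depended on the length of the lists. When every list was shortened to the 38303 peaks with the smallest p-values on chromosomes 1 to 19 and X, synHPRT1 averaged 35.8 ± 0.426% and synHPRT1R 35.2 ± 0.263% (SD, n = 6 each). The share was then higher in synHPRT1 by 0.58 percentage points (exact permutation test, two-sided, p = 0.0195). With each library left out in turn, a check added after the data were seen, this exact permutation p lay between 0.00433 and 0.0368. Both synHPRT1 clones, with averages of 35.7% and 35.9%, lay above both synHPRT1R clones, with 35.2% and 35.3%. These p-values take libraries as the units, and the left-out runs share most libraries. With clones as the units, 2 in each genotype, an exact permutation p could again not be smaller than 0.333.

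No chromosome passed a test between the genotypes. Of the 19 chromosomes, 0 (0%) passed the exact permutation test of the share per library after adjustment by the Benjamini-Hochberg method. Before adjustment, 0 had a p under 0.05. The smallest unadjusted p was 0.390, on chromosome 19, where synHPRT1 had 29.4 ± 5.71% and synHPRT1R had 31.9 ± 3.95% (adjusted p = 0.825, exact permutation, SD over 6 libraries each).

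Windows without a summit recurred in libraries that had no part in choosing them. Of the windows without a summit in 11 libraries, the held-out library had none in 93.0% to 99.2% in synHPRT1 and in 95.7% to 98.8% in synHPRT1R, with medians of 97.4% and 98.3%. The held-out share was lowest in synHPRT1 clone 1 replicate 3, which opened 254 of 3627 windows, and highest in clone 2 replicate 3, with 28 of 3401, the library with the shortest list. Held-out shares thus lay far above the 23.0% to 36.4% over all windows.

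**Figure D5:**
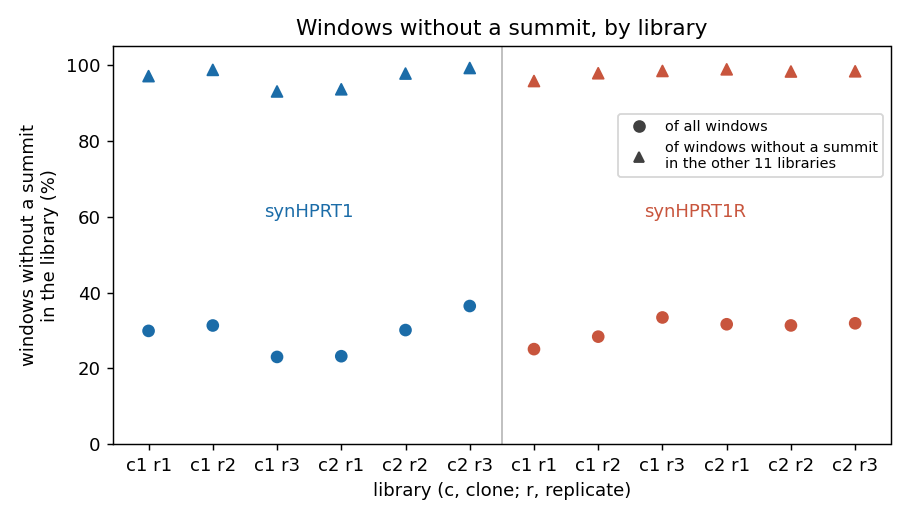
Percent of windows without a summit in each library (vertical axis), over all windows (circles) and over windows without a summit in the other 11 libraries (triangles), for 6 synHPRT1 (blue) and 6 synHPRT1R (red) libraries named by clone and replicate. Triangles lie between 93.0% and 99.2%, circles between 23.0% and 36.4%.

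Between the genotypes the same held for whole sets of 6. In synHPRT1, 3942 windows (16.4%) had no summit in any of its 6 libraries, and 85.6% of these had none in the 6 synHPRT1R libraries either. In synHPRT1R, 4525 windows (18.8%) had none, and 74.5% of these had none in synHPRT1. Both percentages count the same 3373 windows, so they differ only through the totals of 3942 and 4525. Of the 569 windows that had a summit in synHPRT1R only, 439 had it in 1 library, and of the 1152 with a summit in synHPRT1 only, 741 did. A single window, chr13:78500001-78600000, had a summit in all 6 synHPRT1R libraries and in 0 synHPRT1 libraries, and 0 windows were separated the other way. At 4 or more libraries the lean was opposite. Of the windows without a summit in synHPRT1R, 45 had one in at least 4 synHPRT1 libraries, against 6 in the reverse direction. The longest lists, of 63563 and 63704 peaks, were both in synHPRT1. These counts were not repeated with lists of equal length, so the part of list length in them was not tested.

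Some windows missed the threshold of 0 summits by a single weak peak. Exactly 1 summit in all 12 lists was found in 1147 windows, which are thus just outside the set. These single peaks were weak in the authors' scale: their −log10 q-value had a median of 3.03 and ranged from 1.33 to 10.7, against medians of 6.57 to 8.34 over all peaks of a list, and their fold over local background had a median of 3.52. They came from all libraries, 28 in synHPRT1 clone 2 replicate 3 up to 240 in synHPRT1 clone 1 replicate 3. Just inside, 18 of the 3373 windows were reached by the edge of a peak whose summit lay in the next window. A site below the detection limit of 12 libraries is not listed, so these windows hold no detected summit and are not shown to be closed.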

How the data were processed

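The data are 12 peak lists of ATAC-seq libraries, 1 per library. Per the submitters' processing notes, the tools were MACS2 2.1.0, Bowtie2 2.2.9, deepTools 3.5.0, bcl2fastq 2.20 and SAMtools 1.9, and mm10 and GRCm38 are the builds named. The settings, and the treatment of duplicate and multi-mapping reads, are in none of the sources used here. The authors' deposited lists give for each peak a start, an end, the summit offset, an integer score (the −log10 q-value multiplied by 10 and truncated), the fold (a ratio of summit signal to local background), a −log10 p-value and a −log10 q-value, of which the lowest listed was 1.30. Folds and q-values are the authors' and were used only to describe or filter peaks within a list.

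Summits were counted in 100 kb windows, and windows with 0 in all 12 lists were joined into runs, in Python 3.11.15 with pandas 2.3.3. Genes came from a RefSeq table of GRCm38.p6, which gives gene starts and ends without exons, and all gene symbols came from it. A gene was inside when its whole span lay in a run. Families were matched by symbol patterns in 53 lists. Promoter identity was computed with edlib 1.3.9.post1. Genotypes were compared by exact permutation tests over libraries, with Benjamini-Hochberg adjustment in statsmodels 0.14.6. The window and gene counting was checked on simulated lists. Depth is known only through list length, and the read depth of each library is unknown here.

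The windows, lists and tests were chosen with earlier results of these data known. Named items are the 12 longest runs, the 12 families with most genes inside and the comparison lists, the 10 longest genes inside, the 10 genes with most windows without a summit in their span, of which 1 is not reported here, and the chromosomes. Alternatives were peak overlap, stronger peaks, lists of equal length, window phase and size, the first 3 Mb, chromosome X, left-out libraries, single genotypes, gene placement and a replicate block. The share of unassembled bases was not analysed here.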

Additional observations from a re-analysis of the deposited data

Results flagged for a closer look

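One value lay apart from the rest of its group by the gap between it and its nearest neighbour. Of the windows without a summit in the other 11 libraries, synHPRT1R clone 1 replicate 1 had none in 95.7%, whereas the other 5 synHPRT1R libraries lay higher, around a genotype median of 98.3%. It had the longest peak list of its genotype, 58099 peaks. Shares over 42 sets of 6 libraries were examined in this way, and chance alone marks about 1 set in 20.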

How the results depend on the processing

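The number of windows without a summit depended on which peaks counted and on the window size. It was 5615 when peaks needed a −log10 q-value of 5 or more, 5152 with lists of equal length, 14747 with 50 kb windows and 471 with 200 kb windows, against 3373. Runs numbered 7979 with 50 kb and 429 with 200 kb windows, against 2434. Protein-coding genes inside, 632, numbered 1176 at the stricter q-value, 1042 with equal lists, 1500 with 50 kb windows, 114 with 200 kb windows and 961 with the 6 synHPRT1R libraries only. They numbered 996 when placed by midpoint and 1362 by any overlap. Leaving out 1 library gave 3401 to 3627 windows, 2448 to 2559 runs and 638 to 709 genes.

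The genotype difference in share per library reversed, from -1.29 to 0.58 percentage points, with lists of equal length (exact permutation over libraries, p = 0.0195). It kept its direction with a library left out, from -2.78 to -0.096 (exact permutation p from 0.203 to 0.952). With genotype labels permuted within replicate number, as a replicate block, the difference was -1.29 with an exact permutation p of 0.648. The deviations of same-numbered libraries from the means of their clones had a mean correlation of -0.0017 over 18 pairs, from -0.172 to 0.181. Different-numbered libraries had 0.00085 over 36 pairs, so this measure showed no pairing by number. Peak lists shortened from replicate 1 to 3 in synHPRT1 clone 2 and in both synHPRT1R clones, but not in synHPRT1 clone 1. Whether replicate numbers share a batch was not tested. The count of chromosomes past the exact permutation test was 0 under each alternative run for it (equal lists, stricter q-value, 50 kb windows and shifted windows among them).

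Family counts moved with the same choices. Olfactory receptor genes inside, 174, numbered 344 at the stricter q-value, 291 with equal lists, 289 with the synHPRT1R libraries only, 453 with 50 kb and 16 with 200 kb windows. With 50 kb and 200 kb windows, vomeronasal receptor 1 genes (57) numbered 112 and 10, vomeronasal receptor 2 genes (32) 52 and 13, and alpha-defensins (14) 23 and 7. Alpha-defensins numbered 22 at the stricter q-value and with the synHPRT1R libraries only. Prolactin genes (16) numbered 20 and 11 by window size, and the seminal vesicle list (9) 13 and 0. Windows of chromosome X, 635 of 1679 (37.8%) without a summit, would lengthen the longest run to 1500 kb. The alternative that leaves out windows of unassembled bases was not run, as no genome sequence of the build was used.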

Other observations

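Smaller families of tissue-restricted genes had some members in the windows without a summit, where 3.07% of all protein-coding genes lay. These windows are 14.0% of all windows. The late cornified envelope and small proline-rich genes, which build the outer layer of skin, had 5 of 35 inside, in the single window chr3:92400001-92500000 from Sprr2i to Sprr1a. Keratins had 4 of 49, from Krt84 to Krt75, in the single window chr15:101500001-101600000. Serine protease inhibitors of clade a had 4 of 23 and those of clade b 4 of 28. The placental cathepsins had 2 of 9, Ctsj and Ctsq, and over the gene with 1 kb on either side 9 of the 9 had no summit, against 20.8% of all protein-coding genes. That count includes the 2 inside, and gene length was not matched. Of 35 bitter taste receptor genes 1 was inside (2.86%), Tas2r119, a share below that of all genes, while 35 had no summit by the second measure.

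Other groups were picked out after their positions were seen. Of 21 Ms4a genes, which encode membrane proteins of immune cells, 6 shared 1 run: Ms4a14, Ms4a7, Ms4a4a, Ms4a4c, Ms4a4b and Ms4a6c. The inflammatory caspase genes Casp1, Casp4 and Casp12 shared 1 run. Of 20 Mrgpr genes, which encode receptors of sensory neurons, 4 were inside, in 3 runs, and of 12 mucin genes 3, Muc15, Muc5ac and Muc5b. Of transfer RNA genes 5 of 386 (1.3%) were inside.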
